A study of Mus musculus with 6 samples.

Results

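The 39 Hox genes of the mouse, all those among 21887 protein-coding genes whose symbol is Hoxa, Hoxb, Hoxc or Hoxd followed by a number, were described here by where 5-hydroxymethylcytosine (5hmC) was called along them. They were taken from RefSeq gene spans on GRCm38 and comprised 11 Hoxa, 10 Hoxb, 9 Hoxc and 9 Hoxd genes. The study mapped 5hmC, the oxidation product that TET enzymes make from 5-methylcytosine, by immunoprecipitating sonicated DNA with a rabbit antibody to 5hmC and sequencing it (5hmC-DIP-seq). The design asks how the distribution of 5hmC in cells given AML1-ETO differs after excision of Tet2. AML1-ETO is the fusion protein of a translocation of acute myeloid leukaemia.

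The KO group (Tet2-/-, 2 libraries) and the flox group (Tet2fl/fl, 2 libraries) came from bone marrow of C57BL/6 Tet2fl/fl;CreER mice. CreER is a Cre recombinase that 4-hydroxytamoxifen (4-OHT) activates. The marrow had been enriched for Kit, a receptor of stem and progenitor cells, and transduced with the MigR1-AE-IRES-GFP retrovirus, so that both groups carried AML1-ETO. KO cultures were given 200 nM 4-OHT and flox cultures ethanol, in each case for 2 passages (4 days). Cells that were GFP+ and CD16/32+ but CD11b- and Gr1-, that is immature myeloid cells, were sorted at passage 5, and the 4 libraries had 14 PCR cycles and ran in lane 3. Since 4-OHT went to KO cultures alone, Tet2 loss cannot be told apart from the drug or from active Cre. Whether replicates came from separate cultures is not in the labels, and p-values measure only the spread between these libraries, which may be technical. The IgG control and the input of the series were not used here.

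Hox genes encode homeodomain transcription factors that give cells their position along the body axis, and they lie in 4 clusters in which gene order follows the order of their expression. In blood, several of them are active in stem and progenitor cells and are shut off as cells mature. Hoxa9 and its partner Meis1 drive self-renewal in many myeloid leukaemias. Trithorax proteins such as the MLL methyltransferase keep Hox genes active, and Polycomb proteins keep them silent.

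The data are the authors' lists of peaks, 1 list per library. Called length is the number of bases under a peak, and a called length of 0 says only that no peak passed the authors' threshold there, not that 5hmC was absent. The lists held 116539 and 122101 peaks in the KO libraries and 118727 and 118522 peaks in the flox libraries, covering 110.3 and 111.1 Mb in KO and 113.3 and 110.3 Mb in flox. The number of reads behind them was unknown. Tet2 itself with 5 kb on either side had 2432 and 2448 bp called in KO and 1981 and 3509 bp in flox. Which part of Tet2 was excised is not in the labels, so this checks nothing about the deletion.

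Upstream sequences called in all libraries, in some and in 1 alone are shown, as RefSeq gives them on GRCm38.p6. Each is the 250 bases before an annotated start, 5′ to 3′ on the strand of the gene, with every CG dinucleotide, where most 5-methylcytosine of mammals is found, in capitals. CG reads the same on both strands.
Hoxd3 (chr2:74711743-74711992, plus strand): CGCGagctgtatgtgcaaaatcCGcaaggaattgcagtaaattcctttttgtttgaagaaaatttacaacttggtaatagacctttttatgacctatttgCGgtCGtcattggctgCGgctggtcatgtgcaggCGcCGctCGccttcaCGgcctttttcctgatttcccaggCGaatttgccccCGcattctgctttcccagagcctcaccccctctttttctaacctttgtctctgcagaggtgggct
Hoxa9 (chr6:52227371-52227620, minus strand): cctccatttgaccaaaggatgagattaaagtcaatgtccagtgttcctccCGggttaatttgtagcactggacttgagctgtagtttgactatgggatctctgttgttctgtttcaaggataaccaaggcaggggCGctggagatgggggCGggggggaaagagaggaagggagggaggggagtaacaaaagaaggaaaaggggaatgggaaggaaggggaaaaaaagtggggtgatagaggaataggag
Hoxa13 (chr6:52260881-52261130, minus strand): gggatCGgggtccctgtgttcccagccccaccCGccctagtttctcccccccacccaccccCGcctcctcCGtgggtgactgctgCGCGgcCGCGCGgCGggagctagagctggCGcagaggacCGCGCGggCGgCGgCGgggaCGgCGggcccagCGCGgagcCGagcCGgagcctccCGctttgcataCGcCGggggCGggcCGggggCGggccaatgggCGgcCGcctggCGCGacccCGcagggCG
The Hoxd3 sequence, with 12 CG, lay under a peak over all 250 bases in both KO and both flox libraries. That of Hoxa9, with 3 CG, lay wholly under a peak in KO replicate 1 and both flox libraries and had no call in KO replicate 2. Of the Hoxa13 sequence, with 35 CG, the first 118 bases as printed were called in KO replicate 1 and none in the other libraries.

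The clusters also hold microRNA genes. For the pair whose hairpins carried calls, a mature microRNA is shown with the seed, its bases 2 to 8, in capitals.
mmu-miR-196b-5p (Mir196b, chr6:52230129-52230150, minus strand): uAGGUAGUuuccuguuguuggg
mmu-miR-196a-5p (Mir196a-1, chr11:96265187-96265208, plus strand): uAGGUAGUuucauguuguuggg
Both have the seed AGGUAGU. miR-196 is known to direct cleavage of the Hoxb8 messenger RNA. The hairpin of Mir196b, between Hoxa9 and Hoxa10, had 85 and 85 called bases in KO and 2 and 85 in flox. The peak of flox replicate 1 began at 52230164, so the printed miR-196b-5p had no call in that library. The hairpin of Mir196a-1, between Hoxb13 and Hoxb9, had 102 and 43 called bases in KO and 0 and 0 in flox. The peak of KO replicate 2 began at 96265223, past the printed miR-196a-5p, which was thus called in KO replicate 1 alone. No base was called in any library at Mir10a, Mir196a-2, Mir615 or Mir10b.

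**Figure D1:**
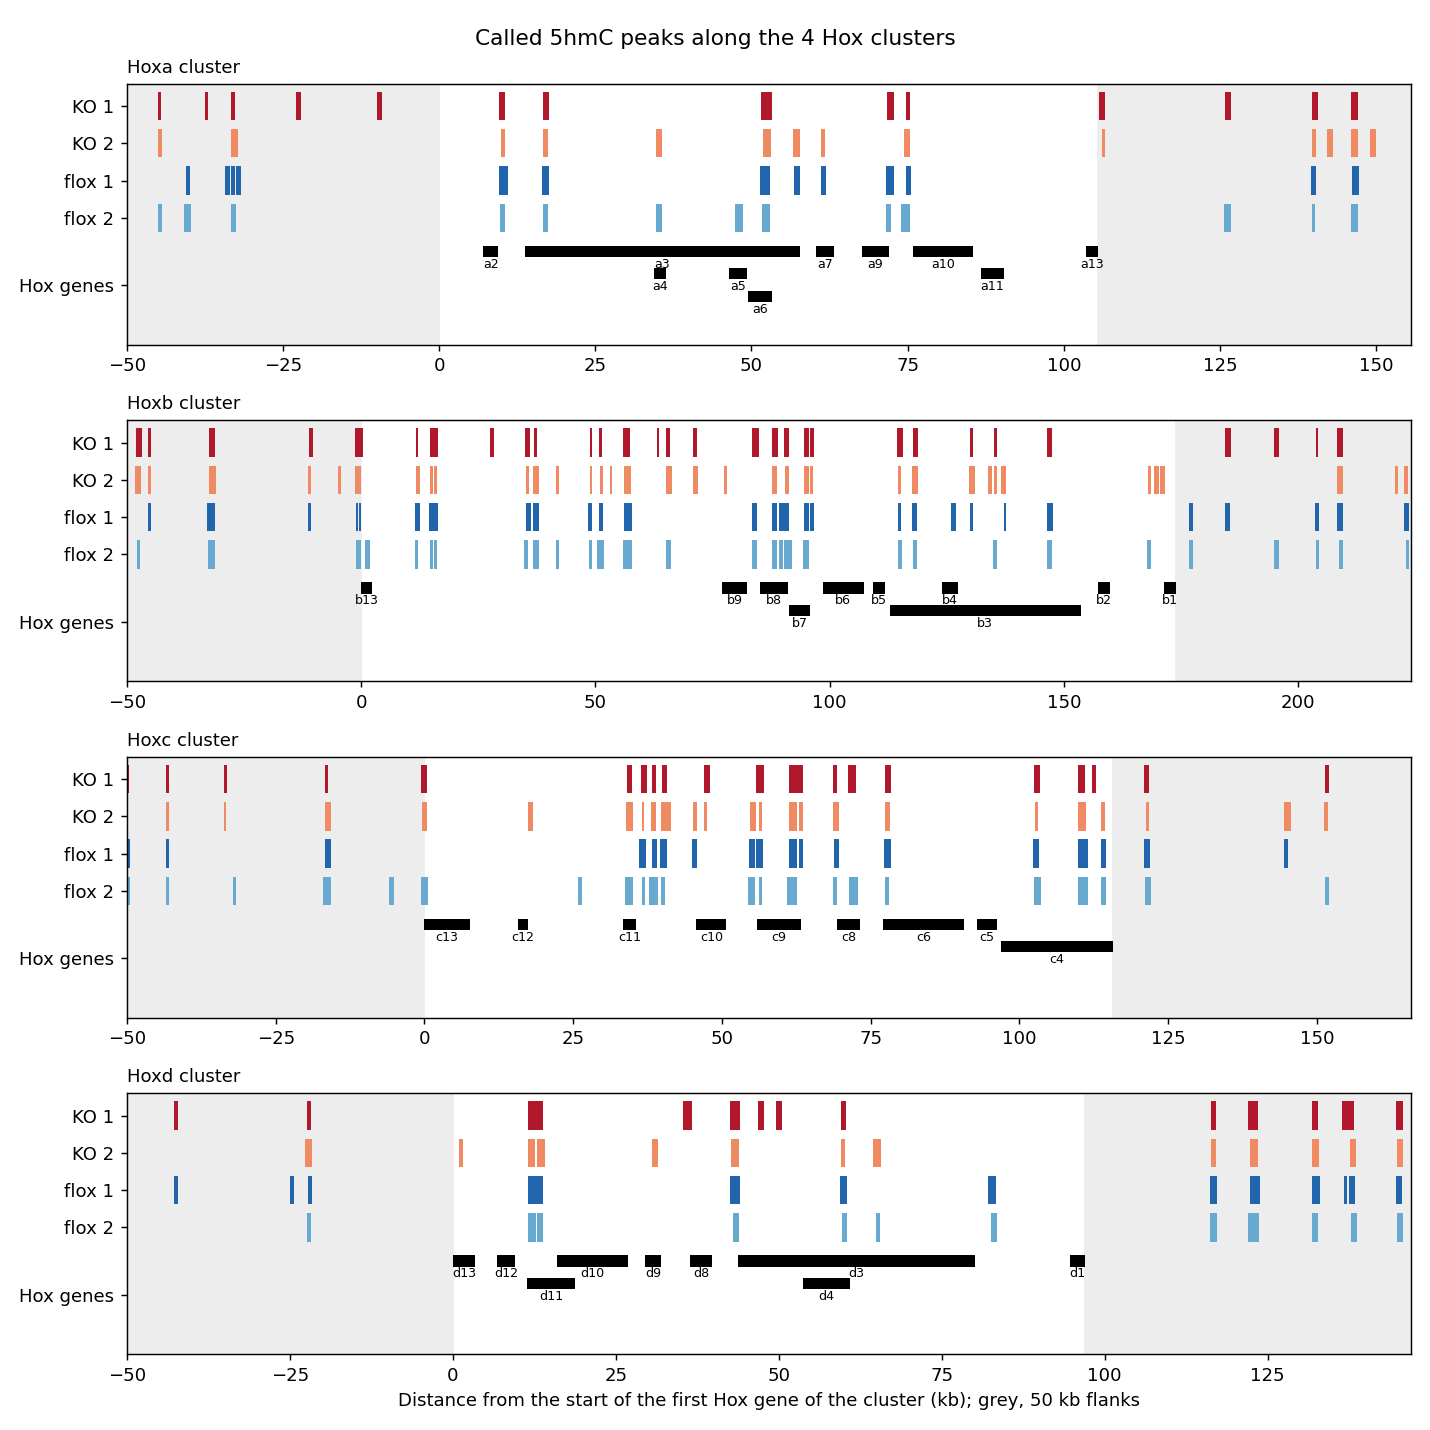
Called 5hmC peaks along the 4 Hox clusters with 50 kb on either side (grey), against the distance in kb from the start of the first Hox gene of each cluster. Coloured blocks are the peaks of KO 1, KO 2, flox 1 and flox 2, black bars Hox genes (not all are drawn). Peaks are spread along Hoxb and crowd the middle of Hoxc, while the stretch from Hoxa10 to Hoxa13 and that around Hoxd1 have none.

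The Hox clusters carried about 2.01 times the share of called bases of the rest of the genome, in both genotypes. Over the 4 clusters with 50 kb on either side, 8.65% and 8.65% of bases were called in KO and 8.20% and 8.19% in flox. In the rest of the genome the shares were 4.15% and 4.18% in KO and 4.26% and 4.15% in flox. All 4 libraries thus had the higher share in the clusters. The difference averaged 4.24 ± 0.291 percentage points (SD, n = 4, two-sided exact sign-flip permutation p = 0.13, the smallest that 4 libraries allow). The SD and the test run over libraries at the same 4 clusters. They do not compare the clusters with similar stretches elsewhere. From the first to the last Hox gene, without flanks, 9.91% and 10.5% of bases were called in KO and 9.72% and 9.96% in flox. Counting peaks scored 100 or more, the difference was 1.84 points, and with the 50000 best scored peaks per library 1.72 points.

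By gene the picture depended on the interval. Within their own spans, 18 and 23 of the 39 Hox genes had a call in the KO libraries and 17 and 18 in the flox libraries. These are 46.2% and 59.0% in KO and 43.6% and 46.2% in flox, against 51.3% and 52.2% in KO and 52.9% and 52.5% in flox of the other protein-coding genes. Hox genes are short, with a median span of 3737 bp against 17197 bp. Per length of span, their median was 0 and 56.1 bp per kb in KO and 0 and 0 in flox. Other genes had 8.59 and 11.1 in KO and 13.5 and 12.1 in flox. Pooling added up spans gene by gene, so bases shared by overlapping spans, as of Hoxa3 and Hoxa4, count for each gene. Pooled over spans in this way, 9.99% and 10.3% of Hox bases were called in KO and 9.73% and 10.5% in flox. Other genes had 4.30% and 4.29% in KO and 4.53% and 4.42% in flox. With 5 kb added at both ends, which neighbouring Hox genes can share, the Hox median was 89.9 and 93.1 bp per kb in KO and 99.9 and 72.8 bp per kb in flox. Other genes had 30.5 and 31.5 bp per kb in KO and 33.5 and 32.9 bp per kb in flox.

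The spread among clusters was wider than that between genotypes. Hoxb (chromosome 11, 96194316 to 96368254) had 12% and 13.6% of its bases called in KO and 11.5% and 12.2% in flox. Hoxc (chromosome 15, 102921131 to 103036856) had 12.7% and 12.5% in KO and 11.9% and 13.1% in flox. Hoxa (chromosome 6, 52155367 to 52260880) had 5.09% and 6.08% in KO and 7.45% and 6.83% in flox. Hoxd (chromosome 2, 74668225 to 74765142) had 8.01% and 7.07% in KO and 6.34% and 5.72% in flox. In all 4 libraries Hoxb and Hoxc thus lay above Hoxa and Hoxd, and Hoxb and Hoxc overlapped. Hoxd lay above Hoxa in both KO libraries and below it in both flox libraries.

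None of the 4 clusters could pass the exact permutation test used between the genotypes, since with 2 libraries against 2 it gives no p under 0.33. Over Hoxa alone, 5372 and 6420 bp were called in KO and 7860 and 7208 bp in flox. Scaled to the same total called length per library, this was 5923.4 ± 713 bp in KO and 7493.9 ± 314 bp in flox (SD over 2 libraries each, exact permutation test, two-sided, p = 0.33). Over Hoxd alone the order was the reverse, with 7765 and 6856 bp in KO and 6147 and 5545 bp in flox (scaled 7348.7 ± 685 bp in KO and 5814.2 ± 311 bp in flox, SD, n = 2 each, exact p = 0.33). The groups do not overlap at either cluster. The ratio of Hoxd to Hoxa called length, chosen after its values were seen, was 1.45 and 1.07 in KO and 0.78 and 0.77 in flox. With 50 kb on either side the ratios were 1.19 and 1.04 in KO and 1.12 and 0.93 in flox and overlapped.

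With these 50 kb flanks, Hoxa had 12856 and 12466 bp in KO and 12759 and 12413 bp in flox (exact p = 1.000, n = 2 each). Hoxd had 15248 and 12916 bp in KO and 14283 and 11574 bp in flox (exact p = 0.667, n = 2 each). Hoxc overlapped as well, with 18729 and 19205 bp in KO and 17697 and 20987 bp in flox (exact p = 1.000, n = 2 each). By called length, Hoxb was the cluster whose groups stayed apart, with 30365 and 32595 bp in KO and 28390 and 28133 bp in flox. Scaled, Hoxb averaged 31632.6 ± 1416 bp in KO and 28126.0 ± 362 bp in flox (SD, n = 2 each, exact p = 0.33, 1.000 when adjusted over 4 clusters). It held 31 and 36 peaks in KO and 29 and 30 in flox (exact p = 0.33, n = 2 each, 0.666 when adjusted). Peak numbers also lay apart at Hoxa with flanks, with 14 and 14 in KO and 13 and 13 in flox (exact p = 0.33, n = 2 each, 0.666 when adjusted). With the 50000 best scored peaks per library the Hoxb difference in called length turned to -1396.8 bp, KO minus flox. With all peaks but no flanks, the Hoxb groups overlapped (20869 and 23733 bp in KO, 20062 and 21141 bp in flox).

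**Figure D2:**
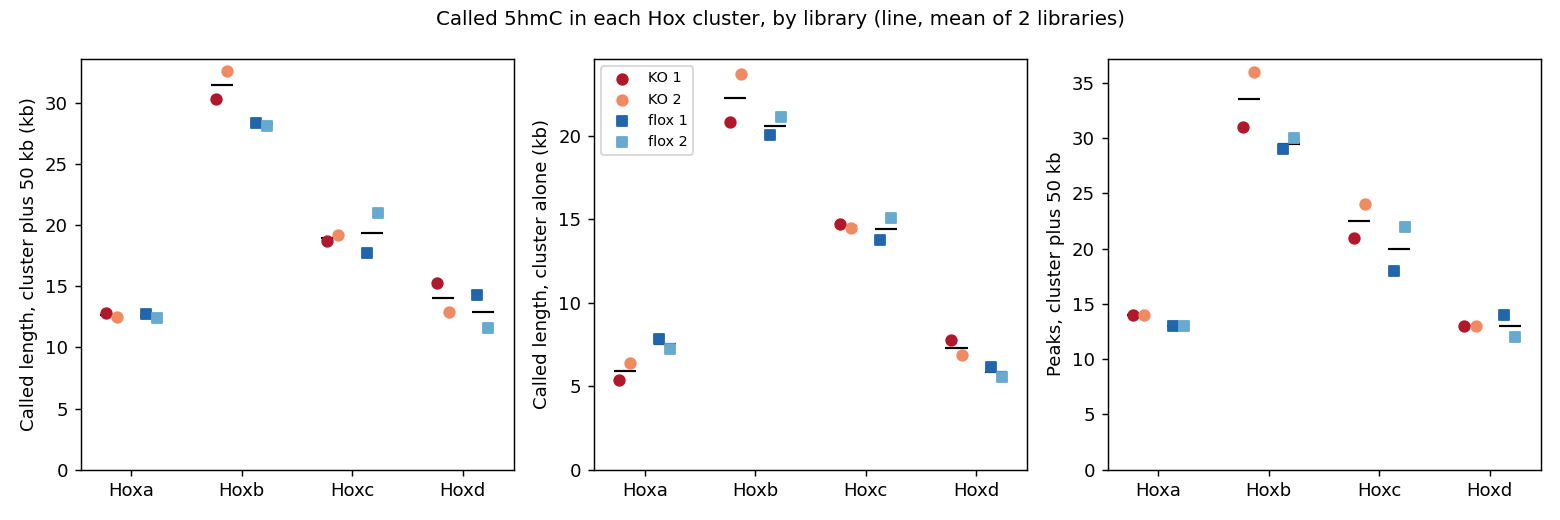
Called length in kb with and without 50 kb flanks, and number of peaks with flanks, for each Hox cluster. Circles are the KO libraries, squares the flox libraries, and lines their unscaled means. By called length, KO lies below flox at Hoxa alone, and above it at Hoxd alone and at Hoxb with flanks. By number of peaks, KO lies above flox at Hoxa and Hoxb.

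Calls in Hoxa ran from Hoxa2 to the interval between Hoxa9 and Hoxa10, and values here are called lengths in a gene's span plus 5 kb at both ends. Hoxa3, which serves the thymus and parathyroid and whose RefSeq span runs over Hoxa4, Hoxa5 and Hoxa6, had 3553 and 5404 bp called in KO and 5897 and 4932 bp in flox. Hoxa2, which sets the identity of the second pharyngeal arch, had 930 and 601 bp in KO and 1374 and 844 bp in flox, all from a region 71 bp beyond its span. Hoxa5, a patterning gene of lung and cervical spine, had 1673 and 1301 bp in KO and 1562 and 2456 bp in flox. Hoxa6 beside it had 1673 and 2322 bp in KO and 2503 and 2456 bp in flox. At Hoxa6 both KO values lie below both flox values (log2 difference -0.26, SE 0.25, limma adjusted p = 0.889), with -0.44 without KO replicate 2 and -0.07 without KO replicate 1. At the other 3 genes the groups overlap. Hoxa7 had calls in 1 library of each genotype, 0 and 1784 bp in KO and 1761 and 0 bp in flox.

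Hoxa9, the leukaemia gene named above, and Hoxa10, which is active in early progenitors, share their peaks and so have the same values. Each had 1819 and 1016 bp in KO and 1963 and 2276 bp in flox, both KO values below both flox values. The log2 difference was -0.47 (SE 0.32, limma adjusted p = 0.866), with -0.78 without KO replicate 1 and -0.16 without KO replicate 2. Inside its own span (52223097 to 52227370) Hoxa9 had 302 and 0 bp in KO and 507 and 541 bp in flox. Inside Hoxa10 (52231197 to 52240854) no base was called in any library. The peaks lie between them, over 39.6% and 26.6% of that interval in KO and 38.1% and 45.3% in flox. Hoxa4 had 0 and 853 bp in KO and 0 and 840 bp in flox, and Hoxa11 none in any library. Hoxa13, a gene of digits and the genital tract, had 959 and 558 bp in KO and 0 and 0 bp in flox, all of it outside the gene.

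The Hoxb genes ranged from densely called to bare. Hoxb8, whose activation together with interleukin 3 transforms mouse myeloid cells, had the most called bases per span, a mean of 40.1% over the libraries. Hoxb7 followed with 29.4%, Hoxb13 with 18.2%, Hoxb3 with 11.5%, Hoxb4 with 7.10% and Hoxb9 with 3.43%, and Hoxb1 had 0.339%. The mean of Hoxb13 came mostly from flox replicate 2, with 397 and 10 bp in KO and 67 and 1195 bp in flox within the span. Within their spans Hoxb4 was called in flox replicate 1 alone, and Hoxb9 and Hoxb1 in KO replicate 2 alone. With 5 kb at both ends Hoxb8 had 5125 and 3239 bp in KO and 5572 and 5826 bp in flox (log2 difference -0.42, SE 0.25, limma adjusted p = 0.845). Its neighbour Hoxb7 had 4317 and 3698 bp in KO and 5235 and 4783 bp in flox (-0.28, SE 0.19, limma adjusted p = 0.861). At both genes the KO values lie below the flox values, and the genes share peaks. Without KO replicate 2 the difference was -0.12 at Hoxb8 and -0.17 at Hoxb7, and without KO replicate 1 it was -0.72 at Hoxb8.

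Hoxb3, with a span of 40830 bp over Hoxb4, had 4497 and 5909 bp in KO and 5085 and 3326 bp in flox. Hoxb4, which expands blood stem cells when overexpressed, had 578 and 1280 bp in KO and 1520 and 0 bp in flox. Hoxb9, a gene of rib patterning, had 1373 and 722 bp in KO and 893 and 1043 bp in flox. These 3 genes show no order between the genotypes. Hoxb6 had 1870 and 1747 bp in KO and 1819 and 1151 bp in flox, and Hoxb5 had 1204 and 747 bp in KO and 660 and 688 bp in flox, with no call inside either span. The Hoxb5 values in KO lie above those in flox (0.32, SE 0.38, limma adjusted p = 0.908). The difference was 0.09 without KO replicate 1 and 0.55 without KO replicate 2. Hoxb13, set apart from the rest of the cluster and known for its role in the prostate and tail, had 1633 and 1982 bp in KO and 1025 and 2203 bp in flox. Hoxb1, which defines a segment of the hindbrain, had 0 and 2895 bp in KO and 810 and 1552 bp in flox, the widest spread between KO replicates among the Hoxb genes. Hoxb2 had no call.

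Much of the Hoxb signal lay between genes. The 74719 bp from Hoxb13 to Hoxb9 (96196611 to 96271329) had 10285 and 10499 bp called in KO and 8782 and 9961 bp in flox. These are 13.8% and 14.1% of the interval in KO and 11.8% and 13.3% in flox, in 11 and 12 peaks in KO and 7 and 10 in flox. The KO values lie above the flox values, but the gap between the groups is smaller than that between the flox replicates.

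Calls in Hoxc crowded from Hoxc11 to Hoxc8. Hoxc9, which sets thoracic motor neuron identity, had 3413 and 3721 bp in KO and 4072 and 3288 bp in flox. Hoxc11 had 3515 and 3172 bp in KO and 3273 and 3949 bp in flox. Hoxc8, a patterning gene of the lower thorax, had 2852 and 1702 bp in KO and 1792 and 2781 bp in flox. The groups overlap at all 3. Hoxc10, a gene of lumbar motor neurons, had 1008 and 2848 bp in KO and 1905 and 1124 bp in flox, and Hoxc6 had 1556 and 766 bp in KO and 1103 and 1409 bp in flox. Hoxc4 had 3056 and 2560 bp in KO and 3479 and 3783 bp in flox, KO below flox in every pairing (log2 difference -0.31, SE 0.21, limma adjusted p = 0.865, and -0.20 without KO replicate 2).

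Between Hoxc11 and Hoxc10 (102956702 to 102966795), 27.8% and 33.6% of bases were called in KO and 40.2% and 26.8% in flox. Hoxc13, needed for hair and nails, had 1057 and 994 bp in KO and 0 and 1118 bp in flox. Its log2 difference of 0.76 (SE 0.67, limma adjusted p = 0.880) rested on flox replicate 1 and was -0.09 without that library and 1.61 without flox replicate 2. Hoxc12 had 821 bp in KO replicate 2 alone, and Hoxc5 had no call.

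The Hoxd genes, which pattern limbs and trunk, held the member with the largest difference. Hoxd9 had 1338 and 889 bp in KO and was listed at 0 in both flox libraries (log2 difference 1.68, SE 0.73, limma adjusted p = 0.824, unadjusted p = 0.0639). It passed the filter through its KO values, so a difference was built into its being tested, and the log2 value depends on the 500 bp added. The bases called in the KO replicates are not the same. KO replicate 1 had a peak at 74703530 to 74704867, with a score of 82.08. That peak began between Hoxd9 and Hoxd8 and covered 253 bp of Hoxd8. KO replicate 2 had a peak inside Hoxd9 at 74698790 to 74699678, with a score of 56.55. The score is -10 times the log10 of the authors' p-value for the peak, and the lists start at 50.

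Hoxd8 had 2782 and 1275 bp in KO and 1480 and 1020 bp in flox. Hoxd4 had 1733 and 1829 bp in KO and 1021 and 1452 bp in flox (0.41, SE 0.29, limma adjusted p = 0.866), with KO above flox. This log2 difference was 0.22 without flox replicate 1, and -0.26 over the span alone. Hoxd3, a gene of cervical vertebrae, had 4087 and 3040 bp in KO and 3790 and 3369 bp in flox. At the posterior end, Hoxd10, Hoxd11 and Hoxd12 share the peaks inside Hoxd11, a gene of the forearm and kidney. KO replicate 1 had 1 peak there, and KO replicate 2 and both flox libraries had 2 each. Hoxd11 and Hoxd12 each had 2340 and 2286 bp in KO and 2357 and 2176 bp in flox, the closest agreement between libraries among the called Hoxd genes. Hoxd10 had 2340 and 3175 bp in KO and 2357 and 2176 bp in flox, values that overlap as called and lie apart, KO above flox, after scaling (0.24, SE 0.24, limma adjusted p = 0.890). Without KO replicate 2 the Hoxd10 difference was 0.05, and without KO replicate 1 it was 0.42. Hoxd13, the digit gene, had 641 bp in KO replicate 2 alone, and Hoxd1 none.

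**Figure D3:**
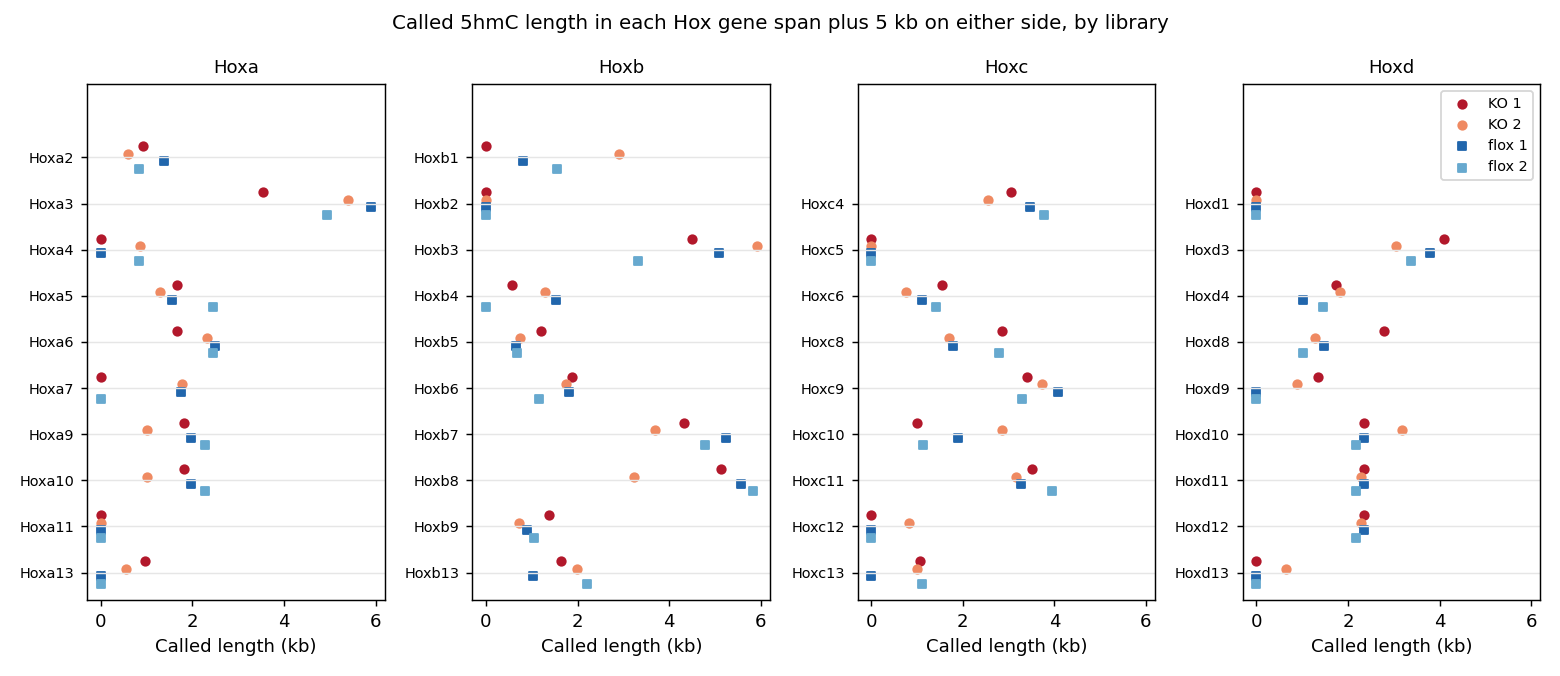
Called length in kb in each Hox gene span plus 5 kb at both ends, by gene (rows, anterior members at the top; not all are drawn). Circles are the KO libraries and squares the flox libraries. Hoxb8, Hoxb7, Hoxb3 and Hoxa3 have the longest called length, and Hoxd9 and Hoxa13 have calls in both KO libraries and in neither flox library.

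Across all members, 13 of 39 were called inside their span in all 4 libraries, 14 in 1 to 3 libraries and 12 in none. With 5 kb at both ends these numbers were 25, 10 and 4, the last being Hoxa11, Hoxb2, Hoxc5 and Hoxd1. In limma (log2 of called bp plus 500, mean called length of 500 bp or more), 30 Hox genes were tested. The 9 not tested included Hoxa4, Hoxa11, Hoxa13, Hoxb2, Hoxc5, Hoxc12, Hoxd1 and Hoxd13.

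No Hox gene passed an adjusted p of 0.05, as no gene did among 14162 (0%). At an unadjusted p under 0.05 there was also no Hox gene, against 869 of all genes (6.14%). By size, 15 of the 30 were lower and 15 higher in KO, with a median log2 difference of 0.01, beside -0.04 over all genes tested. Over all genes tested 7730 were lower and 6432 higher (45.4%). The counts by cluster are given with no test between clusters. Of Hoxa genes 6 of 7 were lower (median -0.31), of Hoxd genes 6 of 7 higher (median 0.24), of Hoxb genes 6 of 9 higher (0.19) and of Hoxc genes 5 of 7 lower (-0.02). Neighbours share peaks, so these counts are not independent. By paralogue, 5 of 8 anterior genes (numbers 1 to 4) were lower, 6 of 10 central (5 to 8) and 4 of 12 posterior genes (9 to 13).

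After scaling, the KO libraries were both below the flox libraries at 6 Hox genes, Hoxa6, Hoxa9, Hoxa10, Hoxb7, Hoxb8 and Hoxc4. That is 6 of 30, beside 20.7% of all genes tested. Both lay above at 4 of 30, Hoxb5, Hoxd4, Hoxd9 and Hoxd10, beside 14.6% of all genes. Neither share is far from that of all genes. The direction turned for Hoxa6 (0.39) and Hoxb5 (-0.58) when peaks scored under 100 were left out, for Hoxd4 (-0.26) over its span alone and for Hoxd10 (-0.13) by number of peaks.

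**Figure D4:**
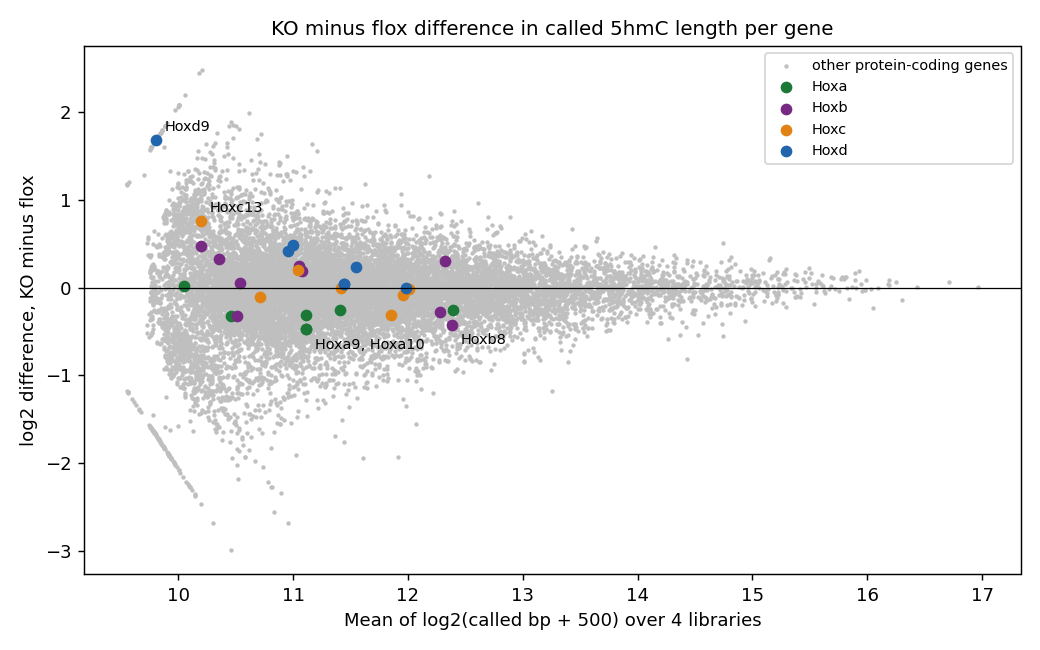
KO minus flox log2 difference in called length plus 500 bp, against its mean over the 4 libraries, for 14162 protein-coding genes (grey) and 30 Hox genes (coloured by cluster). The Hox genes lie within the cloud of all genes, with Hoxd9 at 1.68 on the line of genes called in both KO and neither flox library.

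Regions, made by merging overlapping peaks of the 4 libraries, were shared among libraries about as often at Hox clusters as elsewhere. The clusters with 50 kb flanks held 113 regions, of which 44 (38.9%) were called in all 4 libraries, beside 39.5% over the genome. There were 4 called in both KO libraries and neither flox library (3.54%, genome 3.00%) and 3 with the reverse pattern (2.65%, genome 2.96%).

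The KO-only regions were these. A region at chromosome 6, 52261013 to 52262046, began 133 bp beyond Hoxa13, with scores of 54.95 and 102.06. On chromosome 11, 96265048 to 96266135 spans Mir196a-1, with scores of 52.89 and 58.46. Inside Hoxc10, 102968097 to 102969049 on chromosome 15 had scores of 110.31 and 121.57, the only KO-only region within a Hox gene. The last, 102887430 to 102887955, lay 33176 bp from Hoxc13 (95.17 and 140.21).

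Of the flox-only regions, 1 lay within a cluster, at chromosome 2, 74750299 to 74751636, inside the long noncoding RNA gene Haglr and 2028 bp from Hoxd3 (scores 79.45 and 52.31). The others lay at chromosome 11, 96370957 to 96371767, 2703 bp from Hoxb1 (53.77 and 108.95), and at chromosome 6, 52114592 to 52115585, in a flank of Hoxa (110.31 and 51.07). Scores in these 7 regions ran up to 140.21. Among peaks scored 100 or more there were 2 KO-only regions and 1 flox-only region.

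Within the clusters proper, 29 regions were called in all 4 libraries. In Hoxa they were 52164902 to 52166335 between Hoxa2 and Hoxa3, 52171782 to 52172981 in Hoxa3, 52206722 to 52208608 in Hoxa6, and 52229252 to 52230858 over Mir196b. In Hoxd they were 74679693 to 74682306 in Hoxd11, 74710793 to 74712295 at the start of Hoxd3, and 74727602 to 74728684 in Hoxd4. That in Hoxd11 was the widest of these 7, with scores of 340.76 and 186.17 in KO and 184.81 and 201.0 in flox.

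The Hoxc cluster had 9 such regions. A trio lay between Hoxc11 and Hoxc10, at 102957138 to 102958559, 102958926 to 102960365 and 102960654 to 102962535. In Hoxc9 there were 102976917 to 102978134 and 102982127 to 102983798, and in Hoxc6 102998427 to 102999610. At Hoxc8 lay 102989777 to 102990864, mostly outside the gene. Its peaks in KO replicate 1 and flox replicate 2 ended before Hoxc8. Hoxc4 held 103023496 to 103024708 and 103030978 to 103032714, the second with scores of 274.17 and 396.06 in KO and 356.02 and 266.6 in flox, the highest in the cluster.

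The Hoxb cluster had 13. At Hoxb13 lay 96192926 to 96194712. Between Hoxb13 and Hoxb9 lay 96205855 to 96206948, 96208720 to 96210712, 96229165 to 96230456, 96230995 to 96232336, 96242694 to 96243667, 96244710 to 96246128 and 96250183 to 96252130, the last inside Gm53. In Hoxb8 and Hoxb7 lay 96282003 to 96283315, 96283384 to 96286205 and 96288702 to 96289947. The second of these spans the gap between both genes and had 1212 and 896 bp called in KO and 2338 and 2561 bp in flox, the largest difference among these 13, singled out after its values were seen. In Hoxb3 lay 96308712 to 96309915 and 96311786 to 96313100, with scores of 331.66 and 297.15 in KO and 261.7 and 516.96 in flox at the second.

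Each cluster also had a long stretch with no call in any library. Around Hoxd1 it ran over 32677 bp (74751637 to 74784313), and from Hoxa10 to Hoxa13 over 30154 bp (52230859 to 52261012). Around Hoxc5 it ran over 23885 bp (102999611 to 103023495) and around Hoxb2 over 20010 bp (96342067 to 96362076). The median stretch between regions of the genome was 7530 bp, and 9.52%, 11%, 15.9% and 20.2% of such stretches were longer than these. Such lengths are thus not rare.

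RefSeq upstream sequences were at hand for 22 of the 39 genes (24 sequences). Most were of Hoxa and Hoxd genes, with only Hoxb1, Hoxb4 and Hoxb8 from Hoxb and Hoxc4 from Hoxc. The shares below are thus not those of all Hox genes. Of the 24 sequences, 6 and 4 overlapped a peak in KO (25.0% and 16.7%) and 4 and 4 in flox (16.7% and 16.7%). Of all 32851 upstream sequences, 8.33% and 8.88% did so in KO and 9.42% and 8.89% in flox. Only that of Hoxd3 was called in all 4 libraries, and 16 were called in none. Every Hox sequence held a CG, as did 92.1% of all sequences. The median number of CG was 12.5 in Hox sequences and 6.00 in all. Hox sequences called in any library had a median of 9.50 CG, and those called in none 13. Over all sequences the order was the reverse, 7.00 in those called in any library and 5.00 in those called in none. The called Hox sequences were few and ran from 3 CG (Hoxa9) to 35 CG (Hoxa13). Short overlaps counted as calls, such as 13 bp in KO replicate 2 and 64 bp in flox replicate 1 at Hoxa3. The difference in order was not tested.

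Genes that act with or on Hox genes showed no called difference either. All 9 cofactor genes that bind DNA together with Hox proteins were tested, 5 lower and 4 higher in KO. Of 13 genes listed for trithorax, the MLL complex and the fusion partners of MLL, 10 were tested, 7 lower and 3 higher. Men1, the gene of menin, which tethers MLL to chromatin, had 1619 and 284 bp in KO and 2844 and 2336 bp in flox (-1.25, SE 0.51, limma adjusted p = 0.815), with -1.97 without KO replicate 1 and -0.52 without KO replicate 2.

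Of 20 Polycomb genes 14 were tested, 9 lower and 5 higher. Jarid2, a gene of a Polycomb complex partner, had 1181 and 481 bp in KO and 2525 and 1294 bp in flox (-0.85, SE 0.42, limma adjusted p = 0.827). The Jarid2 difference was -0.46 without KO replicate 2 and -0.49 without flox replicate 1. Of 9 Cdx, Evx, Gsx and related homeobox genes 4 were tested, 1 lower and 3 higher. Cdx4, an activator of Hox genes in blood formation, had 1769 and 607 bp in KO and 0 and 749 bp in flox (1.01, SE 0.69, limma adjusted p = 0.866). The Cdx4 difference was 0.34 without flox replicate 1, 0.48 without KO replicate 1, 1.53 without KO replicate 2 and 1.67 without flox replicate 2. Of 15 genes that neighbour the clusters 10 were tested, 6 lower and 4 higher. Calcoco2 beside Hoxb had 2572 and 1203 bp in KO and 655 and 1231 bp in flox (0.70, SE 0.42, limma adjusted p = 0.845), and -0.38 over its span alone. Leaving out 1 library gave 0.27 (without KO replicate 1) to 1.13 (without KO replicate 2) for Calcoco2, and 0.40 without flox replicate 1. No gene of these 5 lists had an unadjusted p under 0.05.

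Markers of cell types were set beside these values, though a 5hmC peak does not measure expression. Of 11 immature myeloid genes 8 were tested, and 7 of these were lower in KO, beside 7730 of 14162 over all genes. The 3 not tested, Ctsg, Elane and Prtn3, had a call in KO replicate 1 alone, of 628, 811 and 811 bp. Elane and Prtn3 are neighbours whose spans plus 5 kb overlap, so their 811 bp can be the same bases. Summed gene by gene, with such bases counted for each gene, all 11 had 28.6 and 26.4 kb called in KO and 34.5 and 35.4 kb in flox. Csf1r, a growth factor receptor of monocytes, had 1834 and 2059 bp in KO and 4018 and 3658 bp in flox, and Spi1, the PU.1 factor gene, had 12661 and 11435 bp in KO and 15164 and 16221 bp in flox. Of the 8 myeloid genes tested these 2 had an unadjusted p under 0.05, beside 6.14% of all genes tested, and neither passed after adjustment. Of 9 lymphoid genes, all tested, 7 were higher, beside 6432 of 14162 over all genes, with 48.4 and 47.3 kb in KO and 42.1 and 43.8 kb in flox. Pax5, a B cell factor, was the 1 lymphoid gene at an unadjusted p under 0.05, with 16028 and 17019 bp in KO and 11722 and 13603 bp in flox. Erythroid and megakaryocyte genes had 11.3 and 7.3 kb in KO and 10.5 and 10.3 kb in flox, and stromal and endothelial genes 35.4 and 28.7 kb in KO and 40.2 and 35.0 kb in flox. Of 5 erythroid and megakaryocyte genes tested 3 were lower and 2 higher, and of 7 stromal and endothelial genes 5 were lower and 2 higher. Every marker had a call in at least 1 library except Hbb-b1. The gene table places Hbb-b1 within the first 3 Mb of chromosome 7, a stretch left out of the genome counts, so its 0 is not read as a missing call. The part of cell composition in the Hox values was not tested.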

How the data were processed

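5hmC-DIP-seq was compared between 2 KO and 2 flox libraries. CASAVA 1.8, MACS 1.4, Bowtie and GRCm38 (mm10) stand in the submitters' processing notes, without roles. Their settings, the control library and duplicate handling were not stated there. Each deposited file lists the peaks of 1 library. The deposited score was checked to be -10 times log10 of the deposited p-value within 0.02. Both are the authors' values and were used only to describe or filter peaks. Depth is unknown, and more depth can add weak peaks.

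Called bp were counted in RefSeq gene spans plus 5 kb and clusters plus 50 kb, as 1-based GRCm38 coordinates. The gene table gives no exons, so exons and introns were not analysed here. Library values were scaled to the same total called length. Genes were tested with limma 3.58.1 (R 4.3.3, trend, robust) on log2(bp + 500), Benjamini-Hochberg adjusted over 14162 genes with a mean called length of 500 bp or more, checked on simulated data. Fold changes on this scale understate those of genes with little called length. Cluster values were tested by exact permutation. The rest of the genome was counted from 3 Mb on each chromosome. Sequences are RefSeq's on GRCm38.p6. Values per library are given for members that passed the filter or were called in their own span, and log2 differences for the 2 smallest and 2 largest and for genes whose groups do not overlap. Hoxa13, outside this rule, was added after its values were seen. Listed regions were those called in all 4 libraries within a cluster or in 1 genotype alone. Of related lists, the gene with the smallest p and any at an unadjusted p under 0.05 were named. A few genes that these rules would name are not reported here. Members and lists were chosen with earlier results of these data known. Alternatives were peak scores of at least 100, the 50000 highest scored peaks, no scaling, other pseudocounts, filters and intervals, peak numbers, another overlap rule, a replicate block, and leaving out each library. Python 3.11.15, numpy 2.4.6, pandas 2.3.3, statsmodels 0.14.6 and matplotlib 3.10.9 were used.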

Additional observations from a re-analysis of the deposited data

How the results depend on the processing

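No gene passed limma's adjusted threshold under any alternative except the number of peaks, where 1010 genes of 16878 did, among them 3 Hox genes (Hoxa13, Hoxd8 and Hoxd9). All 1010 had no spread within either group. The Hox median of 0.008 stood at -0.146 with scores of at least 100, among 19 Hox genes tested. With that filter 2 KO-only regions and 1 flox-only region were left. Called bp in Hoxa plus 50 kb, 200.8 bp more in KO, turned to -1139.5 with that filter, -1268.4 with the 50000 highest scored peaks, -1570.5 with no flank and -394.9 with 10 kb. The Hoxa peak difference of 1.00 turned to -0.500, -1 and -1 in the first 3 of these. The Hoxb differences turned to -1396.8 bp and -2 peaks with the 50000 highest scored. The Hoxc difference of -212.2 bp turned to 432.9 and 1261.6 with those 2 filters, 310.2 with no flank and 2120.1 with 100 kb.

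Leaving out each library gave -43.3 (without KO replicate 1) to 444.8 bp for Hoxa, 2505.6 to 4507.8 bp for Hoxb, -2112.0 to 1687.7 bp for Hoxc (the last without flox replicate 2) and 82.4 (without KO replicate 1) to 2532.9 bp for Hoxd. The excess of called bases in the Hox clusters ran from 1.72 to 5.83 percentage points over 9 alternatives. Among genes, Hoxc13 ran from -0.09 without flox replicate 1, where it turned, to 1.61 without flox replicate 2. Hoxa6 turned to 0.39 with scores of at least 100, 0.42 with the 50000 highest scored peaks and 0.09 over its span alone. Hoxb5 turned to -0.58 and -0.55 in the first 2 of these, Hoxd4 to -0.26 over its span alone and also plus 2 kb, and Hoxd10 to -0.13 by number of peaks. Calcoco2 turned to -0.38 over its span and -0.09 with 2 kb. The causes were not tested. Libraries of the same number did not deviate together (correlation of deviations over genes 0.006). This cannot tell whether they came from the same culture, which is not in the labels. With the replicate block 0 genes passed, 882 had an unadjusted p under 0.05, and the Hox median was 0.008. Read depth was unknown, so a missing peak cannot be told apart from too few reads.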
